A study of Mus musculus with 868 samples.

Results

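Asenapine, lurasidone and olanzapine, 3 antipsychotics, were compared with alendronate and risedronate, a pair of bisphosphonates, in mouse liver. The members are all 6 antipsychotic and all 4 bisphosphonate liver libraries, 10 of the 36 liver libraries and of 868 libraries in the series. Each drug has 2 libraries, numbered 3 and 4 for asenapine and 1 and 2 for the other drugs. All come from C57BL/6N mice, and frozen liver was extracted with Trizol and sequenced from the 3′ ends of mRNA with a QuantSeq kit. The labels give the drug name alone for these libraries, with no dose, time, vehicle, age or sex. They do not say whether the libraries of a drug come from separate animals, so the p-values measure the spread between libraries, which may be technical. That the 5 drugs form one library set is not in the labels. The treatment nearest to each in expression was another of the 5 (correlations of 0.26 to 0.533, against at most 0.172 outside them). Asenapine and olanzapine were each nearest to a bisphosphonate, alendronate (0.26) and risedronate (0.499), and lurasidone was nearest to olanzapine (0.487). Asenapine and olanzapine did not correlate with each other (−0.00343), and no control group was the nearest to any of the 5 drugs. Each difference below therefore has a treated group on both sides, and a gene that is higher with the antipsychotics may equally be lower with the bisphosphonates.

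Asenapine, lurasidone and olanzapine are second-generation antipsychotics, which block dopamine and serotonin receptors in the brain and are broken down in the liver. Weight gain and disturbed glucose and lipid metabolism are known side effects of the group, best known for olanzapine. Alendronate and risedronate are nitrogen-containing bisphosphonates, which bind to bone mineral and inhibit farnesyl diphosphate synthase, the enzyme encoded by Fdps. The liver makes glucose during fasting, packs lipid into lipoproteins and folds large amounts of secreted protein in the endoplasmic reticulum (ER).

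Total counts ran from 605052 to 856971 per library, and 6735 of the 24421 gene symbols passed the filter on low counts. Values are CPM, counts scaled to the depth of each library, after TMM scaling, and 3 counts in a library, the limit that a count of 0 allows, are worth 3.50 to 4.96 CPM (counting error only). Unless another tool is named, adjusted p-values are from edgeR's quasi-likelihood test with Benjamini-Hochberg adjustment over all tested genes. Fold changes are log2 with a standard error (SE) worked back from that test. It is the size of the fold change divided by the square root of the F statistic, and is unreliable near a fold change of 0. A gene is called where the adjusted p is below 0.05. The median fold change of all genes in the class comparison was −0.00201, and −0.00868 or −0.00131 with other scalings. The 2 libraries of a drug had Spearman correlations of 0.908 to 0.935, libraries of different drugs in a class 0.868 to 0.926, and libraries of different classes 0.882 to 0.921. The ranges within and between classes overlapped, and on the first principal component (27.9% of the variance) asenapine (−17.5 and −16.4) and olanzapine (19.7 and 9.35) stood at opposite ends with all 4 bisphosphonate libraries between them. No pair of libraries was identical.

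The 10 hepatocyte markers were all detected and summed to 100757 to 113864 CPM with the antipsychotics and 109408 to 124618 CPM with the bisphosphonates. Of the markers of other cell types that passed the filter, none was called between the classes: 7 of macrophages, 11 of endothelium, 8 of stellate cells, 3 of neutrophils, 2 each of acinar and fat cells, and 1 each of bile duct and red cells. At an unadjusted p under 0.05 there were 4 of these 35, and 974 of all 6735 tested genes. No lymphocyte marker passed it, and their sum was 5.52 to 16.8 CPM, with Cd3e and Cd79b at 0 counts. The 12 endothelial markers summed to 482 to 605 CPM with the antipsychotics and 446 to 459.5 CPM with the bisphosphonates, with no overlap and a median log2 difference of 0.23 over the 11 tested. The 10 acinar markers stood at 706 CPM in olanzapine replicate 1 and at 36.9 to 141 CPM in the other 9 libraries, with Amy2a5 at 0 counts throughout. In whole tissue, fewer cells of a type and less RNA per cell cannot be told apart.

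Across the whole class 27 genes were called, 18 higher and 9 lower with the antipsychotics (0.401% of tested genes). The spread in this test is that between the 2 libraries of a drug, and differences between drugs of a class do not enter it. A call therefore concerns the mean of these drugs and not their class at large. All 27 had the same sign in each of the 3 drugs, a direction that the choice of genes partly fixes. In 17 of them the 6 antipsychotic and 4 bisphosphonate libraries did not overlap, against 163 of all tested genes (2.42%). At the same threshold 14 of the 27 were also called with asenapine alone (2.21% of all tested genes were). With olanzapine alone 6 were called (0.356% of all) and with lurasidone alone 3 (0.0594% of all). These comparisons share their 4 bisphosphonate libraries, and each reuses antipsychotic libraries of the class comparison, so the overlap is partly built in. Only Wdr92 was called with all 3 drugs, 12 genes were called with asenapine and neither other drug, and 8 were called with no single drug. The drug with the largest difference was asenapine for 12 of the 27, olanzapine for 9 and lurasidone for 6.

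**Figure D1:**
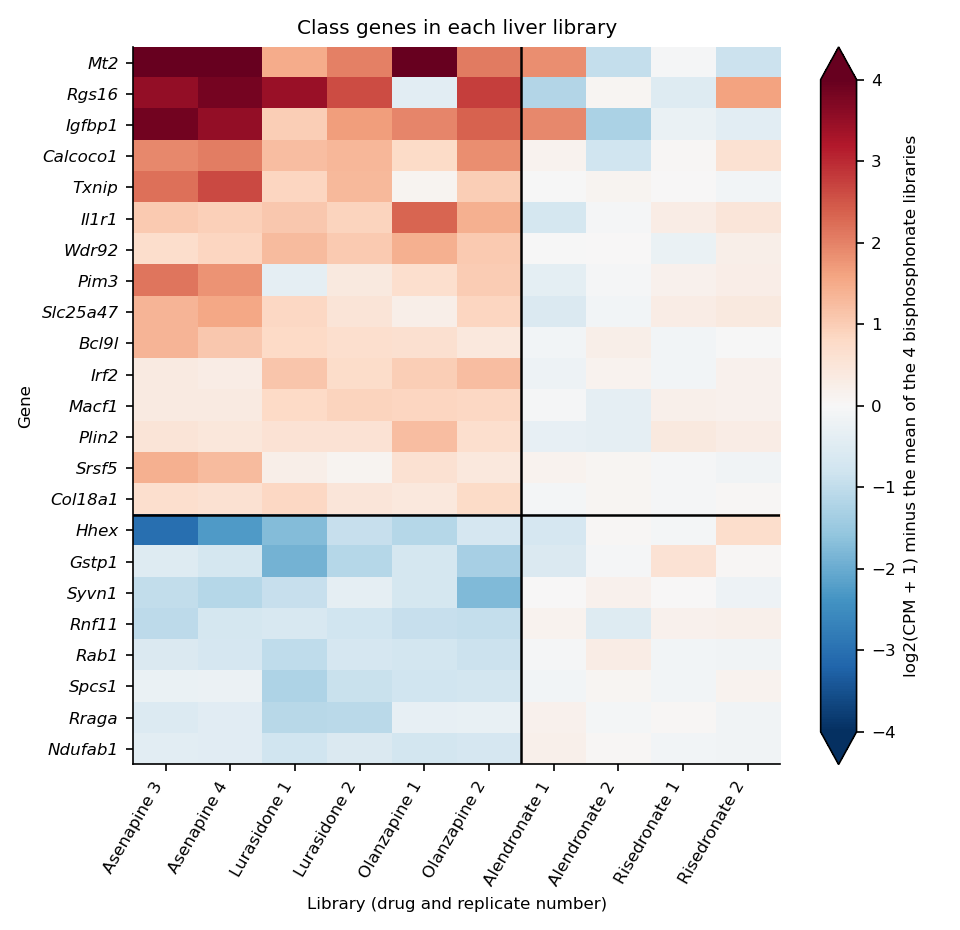
Heat map of the 23 named class genes (rows) in the 10 liver libraries (columns), coloured by log2(CPM + 1) minus the mean of the 4 bisphosphonate libraries, with colours ending at 4 in either direction. The vertical line parts antipsychotics from bisphosphonates. Mt2, Rgs16, Igfbp1, Txnip and Hhex have strong colours in both asenapine columns, Mt2 also in olanzapine replicate 1 and Rgs16 also with lurasidone, while Wdr92 is raised about evenly in all 6 antipsychotic columns.

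The class calls depended heavily on single libraries and on how the libraries of a drug were treated. Fewer genes were called where differences between drugs of a class entered the spread. With the 6 and the 4 libraries as plain groups only Wdr92 was called. With limma voom and the drug as a correlated block no gene was called (494 at an unadjusted p under 0.05). Without asenapine replicate 4 no gene was called either (859 unadjusted), whereas without alendronate replicate 2 there were 116 calls. Without asenapine 5 genes were called, of which Wdr92, Irf2 and 2900060B14Rik were among the 27. None of the 23 named genes was called under all 24 alternatives, and none changed direction under any of them. The most stable was Wdr92, called under 22, followed by Txnip under 19 and Hhex under 18.

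The promoter of Mt2 is shown here because this gene had the largest class difference. Those of Syvn1, lower across the class, and of Hspa5 and Dnajc3, lower with asenapine, were chosen because they share a rare element. Sequences are the 250 bases before the start of transcription from RefSeq (GRCm38.p6), plus strand, 5′ to 3′, at chr8:94172368-94172617 for Mt2, chr2:34771840-34772089 for Hspa5, chr14:118937682-118937931 for Dnajc3 and chr19:6046326-6046575 for Syvn1. Capitals mark the metal response element (TGCGCNC or TGCACNC) in Mt2 and the ER stress element (CCAAT and CCACG with any 9 bases between them) in the other 3, found on either strand.
Mt2: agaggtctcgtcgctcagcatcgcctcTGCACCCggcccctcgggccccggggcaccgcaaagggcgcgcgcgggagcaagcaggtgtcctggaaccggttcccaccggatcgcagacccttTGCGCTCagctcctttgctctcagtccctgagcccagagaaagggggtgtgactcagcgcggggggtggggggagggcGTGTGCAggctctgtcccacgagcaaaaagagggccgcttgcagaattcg
Hspa5: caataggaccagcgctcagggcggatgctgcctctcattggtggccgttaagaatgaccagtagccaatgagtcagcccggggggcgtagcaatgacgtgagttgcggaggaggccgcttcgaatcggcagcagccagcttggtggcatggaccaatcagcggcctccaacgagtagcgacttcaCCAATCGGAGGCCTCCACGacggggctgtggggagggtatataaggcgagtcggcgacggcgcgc
Dnajc3: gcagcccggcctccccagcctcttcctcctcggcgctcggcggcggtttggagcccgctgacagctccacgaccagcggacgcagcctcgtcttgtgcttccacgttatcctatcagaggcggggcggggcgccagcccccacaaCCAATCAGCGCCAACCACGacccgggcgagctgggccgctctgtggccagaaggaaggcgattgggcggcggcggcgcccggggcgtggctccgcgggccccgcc
Syvn1: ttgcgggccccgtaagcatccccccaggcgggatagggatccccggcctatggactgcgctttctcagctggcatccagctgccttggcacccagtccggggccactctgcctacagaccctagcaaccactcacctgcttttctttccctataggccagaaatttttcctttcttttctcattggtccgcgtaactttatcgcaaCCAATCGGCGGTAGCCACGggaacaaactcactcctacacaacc
A match describes letters and not binding. The metal response element is common, with a match in 36.2% of the 5220 tested genes that have a promoter of 300 bases in the table. Mt2 had 4 matches, one of them after the RefSeq start. GENCODE M21 begins Mt2 further on, at chr8:94172664, and Hspa5 earlier, at chr2:34771970, which is inside the stretch shown. The ER stress element was in 12 of 5220 promoters (0.23%), and 7 of these belong to the 16 ER chaperone and quality-control genes with a promoter: Calr, Creld2, Dnajc3, Hsp90b1, Hspa5, Pdia6 and Syvn1. Among the 37 genes lower with asenapine that have a promoter, 3 held it (Canx, Dnajc3 and Hspa5), and among the 76 higher ones none did.

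Wdr92 encodes a WD-repeat protein that works with chaperones in assembling protein complexes, and it was the gene that all 3 drugs shared. It had 342 and 387 CPM with asenapine, 508 and 441 with lurasidone, 574 and 436 with olanzapine, 208 and 216 with alendronate, and 177 and 252 with risedronate. All 6 antipsychotic libraries lay above all 4 bisphosphonate libraries, and the class difference was 1.06 ± 0.13 (adjusted p = 0.00927). Each drug carried it, with 0.77 ± 0.17 for asenapine (adjusted p = 0.0307), 1.15 ± 0.16 for lurasidone (adjusted p = 0.0144) and 1.24 ± 0.16 for olanzapine (adjusted p = 0.00473). It was also called against each bisphosphonate alone, at 1.06 ± 0.17 against alendronate and 1.05 ± 0.17 against risedronate (adjusted p = 0.0288 and 0.0442). The class call was lost without asenapine replicate 4 (adjusted p = 0.0550) and with limma voom and the drug as a block (adjusted p = 0.0609). The lurasidone call was lost without lurasidone replicate 1 (adjusted p = 0.331) or 2 (0.0671) and without risedronate replicate 1 (0.105) or 2 (0.0525).

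The level of Wdr92 also moved widely outside these drugs. In a joint scaling of all 36 liver libraries, in which values differ slightly from those above, it ran from 97.5 and 99.98 CPM in the Untreated livers through 413 and 471 CPM in the group labelled CMCTween to 787 and 1093 CPM with cisplatin. On that scale alendronate lay at 200.2 and 209 CPM and risedronate at 169.5 and 243 CPM. Of the 13 treatments outside the comparison only sofosbuvir, Sucrose and Untreated had lower means than both. The 3 antipsychotics, from 329 and 373 CPM with asenapine to 411 and 546 CPM with olanzapine, lay inside the range of those 13 treatments. GENCODE M21 places Wdr92 at chr11:17182107-17233796 (mm10, plus strand), overlapping Ppp3r1 on the same strand and Pno1 on the other, so reads of these neighbours could be shared. How counting treated strand and overlaps is not given in the sources used here.

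**Figure D2:**
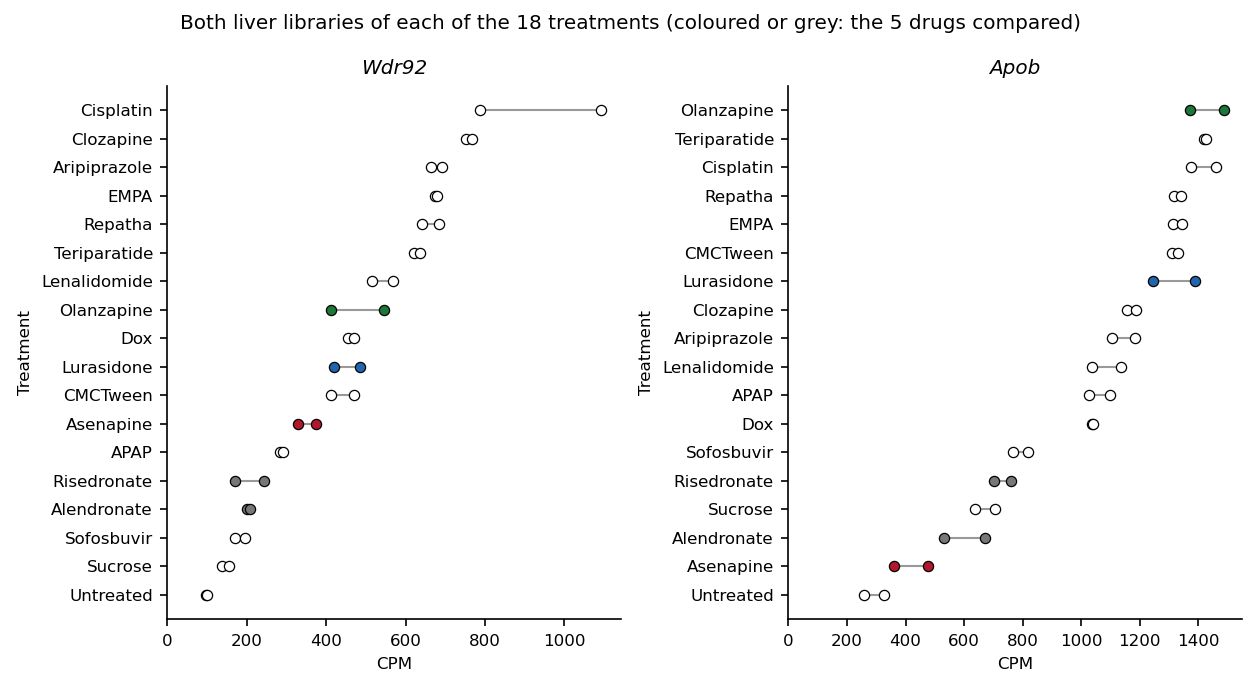
CPM of Wdr92 (left) and Apob (right) in both liver libraries of each of 18 treatments, ordered by mean, with the antipsychotics coloured and the bisphosphonates grey. The bisphosphonates lie below the 3 antipsychotics for Wdr92, and asenapine lies below both bisphosphonates for Apob.

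Txnip, which restrains glucose uptake and binds thioredoxin, had the next most stable class difference, and asenapine carried it. It had 321 and 436 CPM with asenapine, 126 and 171 with lurasidone, 75.1 and 138 with olanzapine, 69.1 and 74.9 with alendronate, and 70.2 and 63.7 with risedronate. All antipsychotic libraries were above all bisphosphonate libraries, although olanzapine replicate 1 was barely so. The class difference was 1.38 ± 0.18 (adjusted p = 0.00927), made of 2.44 ± 0.21 with asenapine (adjusted p = 0.00015), 1.10 ± 0.23 with lurasidone (adjusted p = 0.168) and 0.61 ± 0.24 with olanzapine (adjusted p = 0.251). The 3 drugs differed among themselves (adjusted p = 0.00418). The asenapine call held under all 11 alternatives run for that drug, with a log2 difference of 2.21 to 2.65. Txnip lies at chr3:96557957-96561883 (mm10, plus strand) and overlaps Gm15441 on the other strand.

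Mt2, a metallothionein that binds zinc and copper, had the largest class difference and lies at chr8:94172664-94173568 (mm10, plus strand), with Gm45774 on the other strand. It had 1263 and 1657 CPM with asenapine, 190.1 and 274 with lurasidone, 1092 and 282 with olanzapine, 247 and 33.9 with alendronate, and 64 and 36.2 with risedronate. The groups overlapped, because alendronate replicate 1 was above lurasidone replicate 1, and the class difference was 2.85 ± 0.47 (adjusted p = 0.0219). Asenapine at 4.10 ± 0.54 (adjusted p = 0.00208) and olanzapine at 3.01 ± 0.55 (adjusted p = 0.0343) were called, and lurasidone at 1.45 ± 0.57 was not (adjusted p = 0.366). The olanzapine libraries stood far apart, and without replicate 1 the difference was 1.72 (adjusted p = 0.358). Its neighbour Mt1 followed the same order, with 1522 and 1687 CPM with asenapine, 269.5 and 359 with lurasidone, 1197 and 367 with olanzapine, 412 and 36.8 with alendronate, and 193 and 94.2 with risedronate, and was called with asenapine (adjusted p = 0.0128) and not across the class (adjusted p = 0.092).

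Hhex, a homeobox transcription factor of liver development at chr19:37434810-37440731 (mm10, plus strand), had the largest class difference among the genes that were lower. It had 10.99 and 19.3 CPM with asenapine, 28.4 and 50.03 with lurasidone, 43.4 and 60.4 with olanzapine, 59.5 and 100.4 with alendronate, and 91.1 and 158 with risedronate. The drugs formed an order from asenapine to risedronate in which lurasidone and olanzapine overlapped and olanzapine reached alendronate. The class difference was −1.65 ± 0.24 (adjusted p = 0.0177), and only asenapine was called alone, at −2.69 ± 0.39 (adjusted p = 0.00331). A difference among the 3 drugs was not called (adjusted p = 0.133). The contrast against risedronate was called at −1.97 ± 0.28 (adjusted p = 0.0252) and that against alendronate, at −1.33 ± 0.30, was not (adjusted p = 0.0713).

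**Figure D3:**
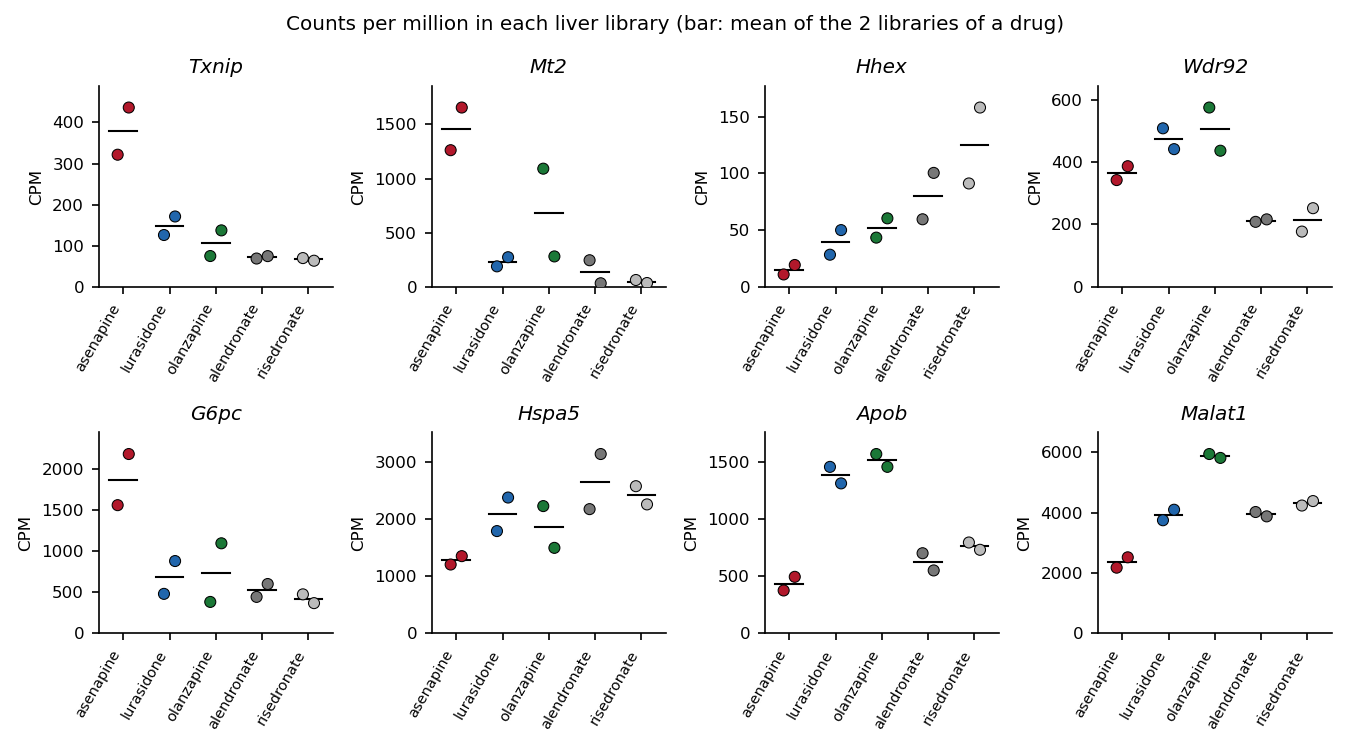
CPM of 8 genes in each of the 10 liver libraries, on linear axes from 0, with a bar at the mean of the 2 libraries of a drug. Txnip, Mt2 and G6pc are highest and Hhex and Hspa5 lowest with asenapine, Wdr92 is higher with all 3 antipsychotics, and Apob and Malat1 are low with asenapine and high with olanzapine.

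A further 10 class genes that were higher were called with asenapine and neither other drug. The difference among the 3 drugs was not called for Rgs16, Igfbp1 and Calcoco1 (adjusted p = 0.239, 0.0597 and 0.377). Nor was it called for Slc25a47, Bcl9l, Col18a1 and Aldh2 (adjusted p = 0.0597, 0.141, 0.961 and 0.757). For these genes a difference between asenapine and the other drugs was not shown. Rgs16, a regulator that shortens G protein signals, had 117 and 145 CPM with asenapine, 111 and 62.2 with lurasidone, 6.68 and 68.8 with olanzapine, 3.57 and 9.90 with alendronate, and 6.15 and 30.4 with risedronate. Olanzapine replicate 1 lay at the level of the bisphosphonates. The class difference was 2.80 ± 0.52 (adjusted p = 0.0371) and the asenapine difference 3.59 ± 0.56 (adjusted p = 0.00488). The olanzapine difference was 1.80 (adjusted p = 0.264), and −0.66 without olanzapine replicate 2. Igfbp1, a secreted binder of insulin-like growth factors whose gene is silenced by insulin, had 724 and 570.1 CPM with asenapine, 96.5 and 159 with lurasidone, 190.3 and 253 with olanzapine, 189 and 19.8 with alendronate, and 40.6 and 36.2 with risedronate. Alendronate replicate 1 was above both lurasidone libraries, and the asenapine difference was 3.33 ± 0.45 (adjusted p = 0.00209). Pim3, a protein kinase, stood at 1024 and 810.3 CPM with asenapine, 367 and 471 with olanzapine, 180.2 and 302 with lurasidone and 177 to 277 with the bisphosphonates. Its lurasidone difference was 0.05 ± 0.20, and the drugs differed among themselves (adjusted p = 0.0025). Srsf5, a splicing factor, had the same form, with 1.34 for asenapine, 0.17 for lurasidone and 0.52 for olanzapine (adjusted p of the difference among them = 0.00693).

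Calcoco1, an autophagy receptor, ranged over 35.1 to 88.3 CPM with the antipsychotics and 11.3 to 31.9 with the bisphosphonates, with differences of 1.97, 1.26 and 1.39 for asenapine, lurasidone and olanzapine. Col18a1, which encodes the basement membrane collagen XVIII, was even across the drugs, at 0.65, 0.67 and 0.60 in the same order. Its 6 antipsychotic libraries (372 to 492 CPM) lay above the 4 bisphosphonate libraries (259.6 to 288 CPM), and the class difference was 0.64 ± 0.11 (adjusted p = 0.0282). Slc25a47, a mitochondrial carrier of hepatocytes, and Bcl9l, a coactivator of Wnt signalling, had asenapine differences of 1.46 and 1.24, with lurasidone and olanzapine between 0.55 and 0.75. Aldh2 and Rcl1, called at class differences of 0.61 and 0.57, fell outside the naming rule by rank and were named after their values were seen. The drugs differed among themselves for Rcl1 (adjusted p = 0.0173).

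The class genes Il1r1, Irf2 and Plin2 were called with olanzapine and with neither other drug. Il1r1, the signalling receptor of interleukin 1, had 59.1 and 55.2 CPM with asenapine, 59.6 and 53.1 with lurasidone, 144 and 77.2 with olanzapine, 16.7 and 26.9 with alendronate, and 34.5 and 39.1 with risedronate, and all antipsychotic libraries were above all bisphosphonate libraries. Its olanzapine difference was 1.97 ± 0.26 (adjusted p = 0.00473) against 1.02 with asenapine and 1.0 with lurasidone. Irf2, a transcription factor of interferon pathways, stood at 180.3 and 213 CPM with olanzapine, 194 and 150.1 with lurasidone, 117 and 110.4 with asenapine and 78.6 to 101 with the bisphosphonates. Plin2, which coats lipid droplets, stood at 402 and 270.04 CPM with olanzapine, 242 and 231 with asenapine, and 251 and 255 with lurasidone. It stood at 135 and 130.1 CPM with alendronate and 223 and 207 with risedronate, for an olanzapine difference of 0.99 ± 0.16 (adjusted p = 0.0192). The antipsychotics as a class differed from alendronate by 1.04 (adjusted p = 0.0288) and from risedronate by 0.34, without a call (adjusted p = 0.487). The difference among the drugs was not called for Il1r1, Irf2 or Plin2 (adjusted p = 0.116, 0.103 and 0.253), so a difference between olanzapine and the other drugs was not shown.

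For the 9 genes lower with the antipsychotics, the median fold change was −0.64 with asenapine, −0.84 with lurasidone and −0.93 with olanzapine, against 1.16, 0.89 and 0.92 for the 18 higher ones. Syvn1, the ubiquitin ligase of ER-associated degradation, had 38.5 and 34.5 CPM with asenapine, 39.7 and 59.1 with lurasidone, 46.8 and 21.8 with olanzapine, 77.4 and 86.2 with alendronate, and 77.5 and 66.6 with risedronate, without overlap. Its class difference was −0.96 ± 0.19 (adjusted p = 0.0467), and the call held under 7 of 24 alternatives. No drug alone was called (adjusted p = 0.0545 with asenapine, 0.363 with lurasidone and 0.0872 with olanzapine). Syvn1 overlaps Mrpl49 on the other strand. Rab1, a GTPase of transport from the ER to the Golgi, ranged over 78.02 to 104 CPM against 143 to 194 CPM, for −0.76 ± 0.12 (adjusted p = 0.0219). Spcs1, a subunit of the signal peptidase, was at 70.1 and 71.8 CPM with asenapine, just below the bisphosphonates (78.6 to 92.7 CPM), and lower with lurasidone (35.5 and 45.5 CPM) and olanzapine (48.4 and 50.3 CPM). Rraga, a GTPase that carries amino acid signals to the kinase mTOR, was called with lurasidone alone, at 83.7 and 84.9 CPM against 204, 171, 187 and 162 CPM (−1.10 ± 0.16, adjusted p = 0.0144). A difference among the 3 drugs was not called for Rraga (adjusted p = 0.0742), and its lurasidone call held under 5 of 11 alternatives. Gstp1, a glutathione transferase with close paralogs that could share its reads, was furthest down with lurasidone too (−1.51, adjusted p = 0.0854), without a call. Rnf11, a ubiquitin ligase component, and Ndufab1, a subunit of respiratory complex I, had class differences of −0.88 and −0.62 with no drug called alone.

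**Figure D4:**
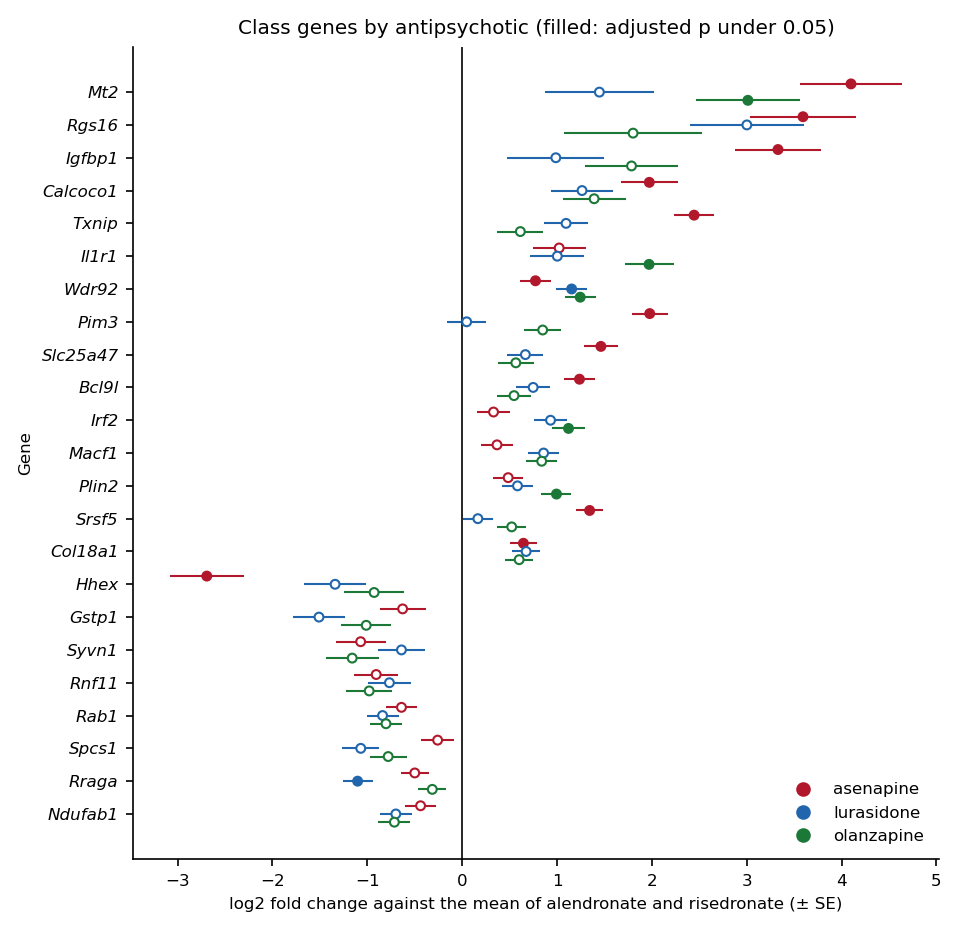
Log2 fold change (± SE) of the 23 named class genes against the mean of alendronate and risedronate, for each antipsychotic (2 libraries each), with filled points at an adjusted p under 0.05. Asenapine is furthest from 0 for Txnip, Pim3, Srsf5 and Hhex (for Hhex a difference among the drugs was not called), while the 3 drugs lie close together for Wdr92, Col18a1, Rab1 and Rnf11.

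The bisphosphonates did not contribute equally either. Against alendronate alone the antipsychotics differed in 16 genes (0.238%), 9 higher (0.134%) and 7 lower (0.104%), and against risedronate alone in 5 (0.0742%), 3 of them higher (0.0445%) and 2 lower (0.0297%). The higher genes included Nlrp12 (2.21), a regulator of inflammatory signalling, against alendronate and Txnip (1.43) against risedronate. Nlrp12 stood at 4.76 and 24.04 CPM with alendronate, 72.6 and 63.7 with risedronate and 31.7 to 90.2 with the antipsychotics. Alendronate was below every other library, and the antipsychotics differed from risedronate by −0.09, without a call (adjusted p = 0.935). Of the 27 class genes 8 were called against alendronate, 5 against risedronate and 2 against both. Cyp7a1, the rate-limiting enzyme of bile acid synthesis, had 17.9 and 13.8 CPM with asenapine, 38.3 and 22.7 with lurasidone, 28.4 and 15.1 with olanzapine, 91.7 and 149.9 with alendronate, and 18.5 and 23.2 with risedronate. Alendronate was above every other library, and the antipsychotics differed from alendronate by −2.44 ± 0.25 (adjusted p = 0.00138) and alendronate from risedronate by 2.53 ± 0.34 (adjusted p = 0.0278). It was 1 of only 2 genes called between alendronate and risedronate (0.0297%), the other being Sds. Oat and Aldh1b1, mitochondrial enzymes of amino acid and aldehyde metabolism, and Nnmt, a nicotinamide methyltransferase, were also lower against alendronate, at −1.14, −2.17 and −1.13. All 3 calls were lost without alendronate replicate 1 (adjusted p = 0.109, 0.217 and 0.293 for Oat, Aldh1b1 and Nnmt), where Aldh1b1 stood at 288 CPM against 79.2 CPM in replicate 2. Without risedronate in the comparison, only Wdr92 of the 27 class genes was still called.

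Asenapine alone differed from the bisphosphonates in 149 genes, 98 higher and 51 lower (2.21%), against 24 for olanzapine (0.356%), of which 18 were higher (0.267%) and 6 lower (0.0891%), and 4 for lurasidone (0.0594%), of which Wdr92, Apob and 2900060B14Rik were higher (0.0445%) and Rraga was lower (0.0148%). The 3 antipsychotics differed among themselves in 135 genes (2%), and asenapine was the drug furthest from the other pair in 97 of them, olanzapine in 36 and lurasidone in 2. The asenapine count fell to 18 without asenapine replicate 3 and rose to 248 without alendronate replicate 2. Mfsd2a, a transporter of lysophospholipids that is induced by fasting in liver, led the differences among the drugs, with 155 and 171 CPM with asenapine, 18.4 and 27.3 with lurasidone, 5.01 and 25.2 with olanzapine, 47.6 and 49.5 with alendronate, and 13.5 and 15.9 with risedronate (adjusted p = 0.000903). It was called with asenapine at 2.60 ± 0.26 (adjusted p = 0.000346), and the call held under all 11 alternatives. The nuclear RNA Malat1 and the small nucleolar RNAs, whose values are given below, were lower with asenapine than with the other antipsychotics, and their part in the asenapine results was not tested.

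Several genes of glucose production and of the insulin response were higher with asenapine. Of 24 tested members 9 were called higher and none lower, against 1.46% and 0.757% of all genes. The median was 0.72, against 0.05 with lurasidone and −0.17 with olanzapine. This list and those below were chosen with earlier results of these data known. An excess over all genes may therefore partly reflect that choice. In all, 9 members of this list differed among the 3 drugs, against 2% of all genes. The 13 periportal hepatocyte markers, which include Pck1 and Sds, also summed to more with asenapine (12822 and 13408 CPM) than in the other 8 libraries (7540.2 to 11801 CPM). Of the 12 tested, Sds alone was called with asenapine and the median was 0.10, and the part of these markers in the result was not tested. Plin4, 1 of 2 tested fat cell markers, was called with asenapine too, at 21.98 and 20.7 CPM against 1.19 to 6.15 CPM. G6pc, which releases free glucose from the hepatocyte, had 1563 and 2187 CPM with asenapine, 482 and 882 with lurasidone, 384 and 1099 with olanzapine, 445 and 602 with alendronate, and 476 and 369 with risedronate, so both asenapine libraries lay above all others (1.99 ± 0.32, adjusted p = 0.00538). Sds, which turns serine into pyruvate, had 562 and 519 CPM with asenapine, 133 and 186 with lurasidone, 58.4 and 106 with olanzapine, 428 and 322 with alendronate, and 80 and 129 with risedronate, and alendronate stood nearly as high as asenapine. Its asenapine difference was 1.45 ± 0.22 (adjusted p = 0.00367), and the drugs differed (adjusted p = 0.00102). Ppargc1a, a coactivator of the fasting programme, had 87.9 and 62.1 CPM with asenapine, 17.02 and 15.2 with lurasidone, 18.4 and 23.5 with olanzapine, 35.7 and 9.90 with alendronate, and 14.8 and 21.7 with risedronate (1.85 ± 0.33, adjusted p = 0.0128). Ppp1r3c, a subunit that targets a phosphatase to glycogen, stood at 231 and 213 CPM with asenapine and 54.8 to 108 CPM with the bisphosphonates. Its relative Ppp1r3g was at 68.7 and 44.2 CPM with asenapine, 0 in both lurasidone libraries and 0 to 7.24 CPM with the bisphosphonates. Foxo1 and Got1 were called as well, with Igfbp1 and Txnip. Pck1, which catalyses the committed step of gluconeogenesis, was at 4956 and 5429 CPM with asenapine and 2665 to 3271 CPM with the bisphosphonates and missed the threshold (0.79 ± 0.21, adjusted p = 0.0759), as did Tat.

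Several immediate early and glucocorticoid-responsive genes were also higher with asenapine. Of 7 tested immediate early genes 4 were called, Dusp1, Zfp36, Jun and Gadd45g, against 1.46% of all genes called higher, with a median of 1.67. Dusp1, a phosphatase that ends MAP kinase signals, had 126 and 74.5 CPM with asenapine, 25.5 and 21.2 with lurasidone, 20.04 and 33.5 with olanzapine, 20.2 and 28.3 with alendronate, and 30.8 and 26.1 with risedronate, and the drugs differed (adjusted p = 0.00685). Zfp36, which speeds the decay of inflammatory mRNAs, had an asenapine difference of 1.67 ± 0.27 (adjusted p = 0.00636). Egr1 and Junb were not called with asenapine, at −0.34 and −0.46. Of 15 genes known to respond to glucocorticoids 5 were called higher (Ddit4, Dusp1, Mt1, Mt2 and Per1), against the same 1.46%, with a median of 1.13, while Tsc22d3 and Nr3c1, the receptor, lay at −0.38 and −0.61 without a call. Of 13 tested clock genes Per1, Bhlhe40 and Ciart were called higher, again against 1.46% of all genes. Ciart, a repressor of the clock, had 64.6 and 45.6 CPM with asenapine, 1.42 and 6.06 with lurasidone, 0 and 0 with olanzapine, 7.15 and 31.1 with alendronate, and 1.23 and 5.79 with risedronate, with an adjusted p of 0.00834 for the difference among the drugs. Clock genes change over the day, the labels used here give no time of collection, and its part in these results was not tested. No member of these 3 lists but Mt2 was called across the class. The lists share Dusp1 and Per1, so their counts are not separate.

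Some chaperone genes were lower with asenapine. Of 13 heat shock genes none was higher in sign, Hsph1 and Hspa8 were called lower (0.757% of all genes were), and the median was −0.82, against −0.13 with lurasidone and −0.38 with olanzapine. Across the class none was called, with a median of −0.43. At an unadjusted p under 0.05, 9 of 13 passed, and 974 of all 6735 tested genes. Hsph1, a co-chaperone of the Hsp70 family, had 15.1 and 26.2 CPM with asenapine, 75.2 and 97.03 with lurasidone, 53.4 and 41.9 with olanzapine, 55.97 and 84.8 with alendronate, and 111 and 86.9 with risedronate. Both asenapine libraries were below all others (−2.0 ± 0.29, adjusted p = 0.00331), and the drugs differed (adjusted p = 0.0173). Of 18 ER chaperone and quality-control genes 3 were called lower (Hspa5, Pdia4 and Dnajc3), against the same 0.757%, 16 were negative in sign and the median was −0.69. Hspa5, the main chaperone of the ER lumen and the sensor of its load, had 1206 and 1353 CPM with asenapine, 1792 and 2379 with lurasidone, 2229 and 1498 with olanzapine, 2176 and 3140.2 with alendronate, and 2577 and 2259 with risedronate, with an asenapine difference of −0.99 ± 0.20 (adjusted p = 0.0213). Dnajc3, its cofactor, had an asenapine difference of −0.77 ± 0.17 (adjusted p = 0.0327), and the difference among drugs was not called for either (adjusted p = 0.201 and 0.0846). Both carry the ER stress element in the promoters above, as does Syvn1. Hsp90b1 and Calr, which carry it too, lay at −0.96 and −0.57 without a call (adjusted p = 0.0619 and 0.141). The Hspa5, Dnajc3 and Hspa8 calls held under 7, 6 and 7 of 11 alternatives.

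**Figure D5:**
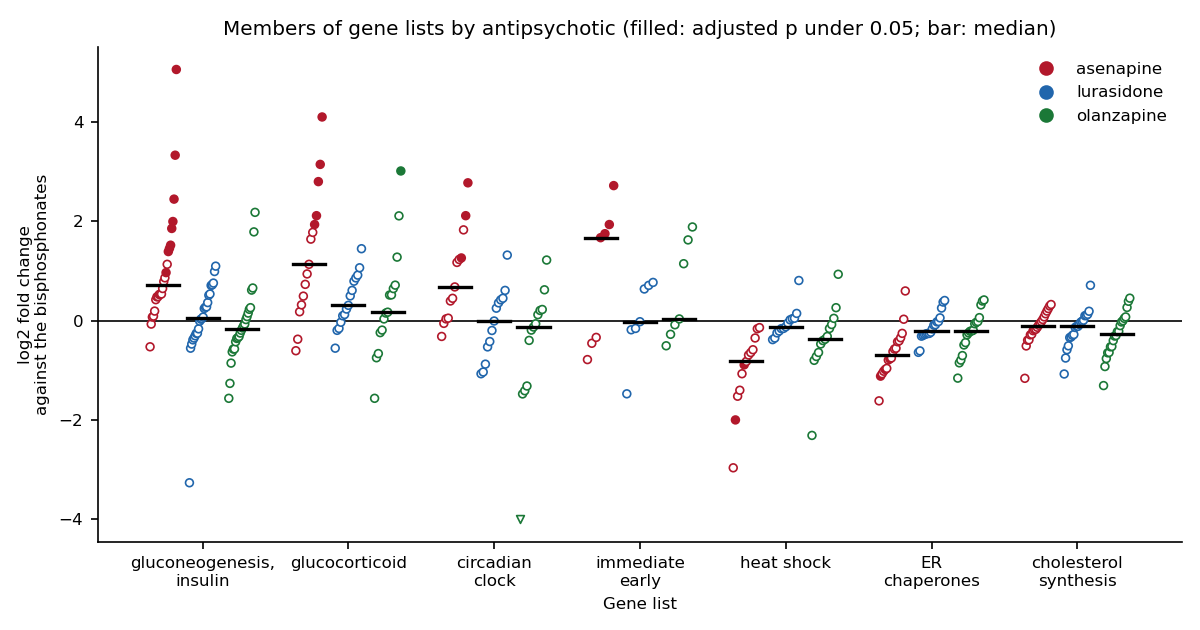
Log2 fold change against the bisphosphonates for the tested members of 7 gene lists, by antipsychotic, with filled points at an adjusted p under 0.05 and a bar at the median (a triangle marks 1 value below the axis). Asenapine medians are 0.72 for gluconeogenesis and 1.67 for immediate early genes, and −0.82 for heat shock and −0.69 for ER chaperones, while the medians for cholesterol synthesis lie between −0.11 and −0.26 in all 3 drugs.

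The genes called with olanzapine included regulators and enzymes of lipid metabolism. Srebf1, the transcription factor that drives fatty acid synthesis, had 162 and 109 CPM with asenapine, 113 and 56.1 with lurasidone, 28.4 and 35.2 with olanzapine, 135 and 216 with alendronate, and 92.3 and 84.03 with risedronate, so both olanzapine libraries lay below all others (−1.96 ± 0.34, adjusted p = 0.0286). The drugs differed for Srebf1 (adjusted p = 0.0274), but none of the other 20 tested genes of fatty acid synthesis was called with olanzapine. Ppara, the receptor that turns on fatty acid oxidation, stood at 639 and 691 CPM with olanzapine and 320.4 to 469 CPM with the bisphosphonates (0.83 ± 0.14, adjusted p = 0.0279). Of the 25 tested PPARA targets and oxidation genes, Ppara itself and Plin2 were called higher, against 0.267% of all genes, and the median was 0.14. Crot, a peroxisomal acyltransferase, and Cyp8b1, which sets the balance of bile acids, were higher by 0.86 ± 0.13 and 1.29 ± 0.23 (adjusted p = 0.0133 and 0.0291). Crot stood at 561 and 538 CPM with olanzapine, 355 and 350 with lurasidone, 382 and 368 with risedronate and 257 and 235 with alendronate. With asenapine it was lower in sign (−0.55, adjusted p = 0.0545). The drugs differed for Crot (adjusted p = 0.00203), and a difference among them was not called for Cyp8b1 (adjusted p = 0.0882). The plasma protein gene Ahsg was lower, at −0.71 ± 0.12 (adjusted p = 0.0279). The count of 24 fell to 2 without olanzapine replicate 1 and rose to 107 without alendronate replicate 2.

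Apob, the structural protein of very low density lipoprotein, split the antipsychotics in opposite directions. It had 375 and 494 CPM with asenapine, 1454 and 1309.8 with lurasidone, 1566 and 1454 with olanzapine, 700.3 and 549.99 with alendronate, and 794 and 730.2 with risedronate. Lurasidone (1.0 ± 0.14) and olanzapine (1.13 ± 0.14) were called higher (adjusted p = 0.0144 and 0.00473), asenapine (−0.67 ± 0.15) was called lower (adjusted p = 0.0409), and the class difference was not called (0.49 ± 0.11, adjusted p = 0.0812). The difference among the drugs (adjusted p = 0.000903) held under all 11 alternatives, whereas the calls for single drugs held under 6 (asenapine), 7 (lurasidone) and 10 (olanzapine) of 11. The asenapine call was lost without either asenapine library (adjusted p = 0.448 without replicate 3 and 0.117 without replicate 4), and the lurasidone call without either lurasidone library (adjusted p = 0.331 and 0.0689). Of the other 15 tested lipoprotein genes only Scarb1 was called, higher with asenapine. Like Wdr92, Apob varied widely over the 18 liver treatments, from 259.6 and 325 CPM in Untreated livers to 1371 and 1488 CPM with olanzapine in the joint scaling.

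Some nuclear transcripts also differed between asenapine and olanzapine. Malat1, a long RNA retained in the nucleus, had 2180.4 and 2523 CPM with asenapine, 3752 and 4101 with lurasidone, 5947 and 5818 with olanzapine, 4025 and 3881 with alendronate, and 4240.1 and 4388 with risedronate, with no overlap between asenapine, the middle groups and olanzapine, and the drugs differed (adjusted p = 0.0016). Small nucleolar RNA genes summed to 55.2 and 64.6 CPM with asenapine, 129 and 182 with lurasidone, 229.8 and 235 with olanzapine, and 56.6 to 109.5 with the bisphosphonates, so that asenapine overlapped the bisphosphonates. Neat1, another nuclear RNA, stood at 100.3 and 71.8 CPM with asenapine, inside or above the range of the bisphosphonates (55.97 to 87.7 CPM), and at 169 and 133 CPM with olanzapine. Snord89, one of them, was higher with olanzapine by 1.79 ± 0.21 (adjusted p = 0.00258). Rsrp1, which encodes a protein rich in arginine and serine, was lower with asenapine, at 83.8 and 101 CPM against 207 to 232 CPM. 2900060B14Rik, called across the class (0.99 ± 0.13, adjusted p = 0.00997), had 65.9 and 74.5 CPM with asenapine, 179 and 141 with lurasidone, 250.4 and 203 with olanzapine, 91.7 and 79.2 with alendronate, and 55.4 and 55.1 with risedronate. It was called with lurasidone and olanzapine, not with asenapine (0.03), and the drugs differed (adjusted p = 0.0025). GENCODE M21 annotates it as antisense at chr1:118458652-118459267 (mm10, minus strand), inside Clasp1 on the other strand and over the small nuclear RNA gene Gm22710, so its counts may include their reads. The naming rule left it out for its symbol, and it was named after its values were seen because only 4 genes were called with lurasidone.

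Few of the drugs' known target genes were detected. Fdps was at 18.8 to 65.0 CPM in the 10 libraries and was not called between the classes (−0.16 ± 0.25, adjusted p = 0.805). Of 18 target genes listed, 13 had 0 counts in all 10 libraries: Drd1, Drd2, Drd3, Drd4, Htr1a, Htr2a, Htr2b, Htr2c, Htr6, Htr7, Hrh1, Adra2a and Chrm1. Adra1b, the main alpha-1 adrenoceptor of mouse hepatocytes, was the one receptor gene tested, at 92.2 to 184 CPM with the antipsychotics and 106 to 143 CPM with the bisphosphonates (0.10 ± 0.12, adjusted p = 0.764). Cyp2b10, a drug-inducible cytochrome P450, was at 38.5 and 35.9 CPM with asenapine, 26.95 and 16.7 with lurasidone, 1.67 and 10.1 with olanzapine, 20.2 and 18.4 with alendronate and 0 in both risedronate libraries. It was called with asenapine (adjusted p = 0.00373), but alendronate reached the lurasidone level and the fold change is not given because risedronate had no count.

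Cholesterol synthesis genes, which several antipsychotics are known to raise in cultured cells, showed no call here. With edgeR none of 20 tested members was called across the class or with any of the 3 drugs. At an unadjusted p under 0.05 there were 2 for the class, 1 for asenapine and 3 for each of the other drugs. All tested genes gave 974 for the class, 1055 for asenapine, 785 for lurasidone and 1039 for olanzapine at that level. The medians were −0.17 for the class, −0.11 for asenapine, −0.12 for lurasidone and −0.26 for olanzapine. For comparison, clozapine and aripiprazole, another pair of antipsychotics, were set against the CMCTween libraries in the fit of all 36 libraries with 8242 genes tested. There 39 genes were called, 27 higher and 12 lower (0.473%), and 9 of 26 cholesterol synthesis genes were higher, with a median of 1.02. Dhcr7, the last enzyme of the pathway, differed by 2.29 ± 0.35 (adjusted p = 0.000976) and Fdps by 2.06 ± 0.47 (adjusted p = 0.0368). The Dhcr7 call held under 7 of 8 alternatives and the Fdps call under 1, with values of 0.86 to 2.48. The pairs differ in drug, library set and reference, and the difference between them was not tested. Of the 27 class genes, 17 had the same sign with clozapine and aripiprazole as across the class, and the rest had the opposite sign. Mt2 (3.03 ± 0.72), Txnip (1.16 ± 0.27) and Wdr92 (0.70 ± 0.14) were called there in the same direction (adjusted p = 0.0458, 0.0458 and 0.0142). 2900060B14Rik was called in the opposite one. The Mt2 and Txnip calls held under 2 of 8 alternatives and the Wdr92 call under 4.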

How the data were processed

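QuantSeq 3′ mRNA libraries of frozen C57BL/6N liver were used as whole-number counts per gene, as the authors deposited them, with no normalization. The submitters' processing notes name bcl2fastq 2.17, TopHat2 2.1.1, HTSeq 0.9.1 and mm10, and the annotation and strand setting are not given in the sources used here. The 10 libraries (605052 to 856971 counts each) were fitted with edgeR 4.0.16 (R 4.3.3), with 5 drug groups, TMM scaling, filterByExpr at a minimum count of 10, 5 residual degrees of freedom and Benjamini-Hochberg adjustment over all 6735 tested genes. A class contrast is the mean of 3 drug coefficients minus the mean of the other 2. The model was tested on simulated data. Alternatives used DESeq2 1.42.0, limma 3.58.1, other scalings, filters and designs, and left out each drug or library. Members and 36 gene lists were chosen with earlier results of these data known. Named genes have a mean of at least 5 CPM in either class and symbols that are not Gm numbers or Rik names. They are the 15 largest calls per direction for the class, the 5 largest for other contrasts, the 10 smallest p for the difference among drugs, and called list members with 2 to 4 uncalled ones per list. Fdps and receptor genes are named in any case. Promoters are RefSeq's (GRCm38.p6), and positions are from GENCODE M21 (mm10).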

Additional observations from a re-analysis of the deposited data

Results flagged for a closer look

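On the log2 scale, 4 of 48 groups checked (23 named class genes in each class, and total counts) held a library far from the rest, where chance gives about 1 in 20. Olanzapine replicate 1 was low for Rgs16 (6.68 CPM), with a gap to its nearest neighbour of 0.701 of the range of the 6 antipsychotic libraries. The same library was high for Il1r1 (144 CPM, gap 0.628 of the range) and Plin2 (402 CPM, gap 0.717). Alendronate replicate 2 was low for Rnf11 (48.1 CPM), with a gap of 0.909 of the range of the 4 bisphosphonate libraries. Olanzapine replicate 1 also held the acinar markers at 706 CPM, whose part in these results was not tested.

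The difference between the antipsychotics was itself tested with edgeR's quasi-likelihood test and was called for 5 class genes. By the naming rule these were Txnip (adjusted p = 0.00418), Pim3 (adjusted p = 0.0025) and Srsf5 (adjusted p = 0.00693). Rcl1 (adjusted p = 0.0173) and 2900060B14Rik (adjusted p = 0.0025) were named after their values were seen. Txnip, Pim3, Srsf5 and Rcl1 were highest in both asenapine libraries, whereas 2900060B14Rik was lower with asenapine than with lurasidone or olanzapine.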

How the results depend on the processing

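The labels do not tie library numbers to animals, and same-numbered libraries deviated together (over 0.1) in 2 of 6 pairs, so the numbers are treated as names. With a replicate block there were 7 class calls, 92 for asenapine, 2 for lurasidone, 15 for olanzapine, 2 against risedronate and 0 between the bisphosphonates. With no filter on low counts there were 247 for the class, 338 for asenapine, 98 for lurasidone, 270.0 for olanzapine, 295 against alendronate, 106 against risedronate, 135 between the bisphosphonates and 501 among the antipsychotics. With all 36 liver libraries in the fit these were 131, 277, 20, 174, 128, 20, 0 and 368. DESeq2 called 71 for asenapine, 2 for lurasidone, 32 against alendronate and 72 among the antipsychotics. For the class there was 1 call with 2 plain groups, 0 with voom, 5 without asenapine, 17 without lurasidone and 3 without risedronate. Leaving out each library gave 0 to 116 calls for the class, 18 to 248 for asenapine, 0 to 29 for lurasidone, 2 to 107 for olanzapine, 1 to 159 against alendronate, 0 to 6 against risedronate, 0 to 80 between the bisphosphonates, 13 to 125 among the antipsychotics, and 1 to 23 for clozapine and aripiprazole, which had 82 against all other groups. The highest counts came without alendronate replicate 2 in 6 of these. The class difference of Fdps turned to 0.094 without alendronate, 0.05 without alendronate replicate 2 and 0.28 without risedronate replicate 1, within −0.42 to 0.28 over all libraries left out. Rgs16 with olanzapine ranged from −0.66 without olanzapine replicate 2 to 2.66 without replicate 1. The cause was not tested. At 3.50 to 4.96 CPM for 3 counts, genes of low expression could not be compared.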
